A study of Mus musculus with 6 samples.

Results

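The genes described here are 9 markers of B cells and plasma cells (Ms4a1, Cd79a, Cd79b, Bank1, Fcmr, Fcrl1, Fcrla, Pou2af1 and Irf4), read in lung cells from which CD45-positive leukocytes had been depleted. They were found by name through the RefSeq transcript of each array probe, which gave 10 probes for 9 of the 16424 genes tested. The groups were CD45-negative lung cells of Ccr2KO mice (strain B6.129S4-Ccr2tm1Ifc/J) untreated, at 28 days and at 40 days after silica aspiration, and of WT mice (C57BL/6J) at the same 3 times. The mice were 7 to 9 weeks old when experiments began. Perfused lungs had been digested with enzymes, freed of red cells and particles on Percoll and depleted magnetically. A group is 1 RNA, a pool of 3 biological replicates, on 1 one-colour Agilent array, so no spread between animals could be measured. The untreated mice are labelled day 0, and no group given a vehicle aspiration was analysed here.

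B cells recognise antigen through a surface immunoglobulin that signals through the paired chains CD79A and CD79B, and activated B cells can become plasma cells, which secrete antibody. CD45, the product of Ptprc, is carried by B cells and other leukocytes, and its B220 form is reduced on plasma cells. In rodent lungs, inhaled silica is known for chronic inflammation, fibrosis and lymphoid aggregates that hold B cells, while CCR2 is the receptor that lets monocytes leave the marrow towards CCL2. The magnetic sort removes cells that carry CD45, so the level of Ptprc on each array serves here as the reading of leukocyte RNA that remained.

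The promoter stretches of 3 members are shown because the members moved together across the arrays and these 3 held the most matches to motifs known from B cell promoters. They come from the RefSeq promoter table (GRCm38.p6), which matched 7 of the 9 members. Each is a promoter window of 250 bases from that table, 5′ to 3′ on its own strand, and need not end at the annotated start of the gene. Capitals mark matches on either strand to the ETS core GGAAGT, the E2A E-box CAGGTG and the EBF palindrome CCCNNGGG. The Cd79a window lies at chr7:24897247-24897496 on the plus strand, that of Bank1 at chr3:136326067-136326316 on the minus strand and that of Fcrl1 at chr3:87376137-87376386 on the plus strand. The annotated Bank1 gene reaches to base 136326141 and the annotated Fcrl1 gene begins at base 87376353. The 3′ part of these windows, with both Fcrl1 matches and the ETS and EBF matches of Bank1, therefore lies inside the gene.
Cd79a: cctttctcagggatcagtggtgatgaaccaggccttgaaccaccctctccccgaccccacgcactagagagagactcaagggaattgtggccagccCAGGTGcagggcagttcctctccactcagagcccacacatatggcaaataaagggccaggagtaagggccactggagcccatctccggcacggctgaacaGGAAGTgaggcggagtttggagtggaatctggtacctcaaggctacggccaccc
Bank1: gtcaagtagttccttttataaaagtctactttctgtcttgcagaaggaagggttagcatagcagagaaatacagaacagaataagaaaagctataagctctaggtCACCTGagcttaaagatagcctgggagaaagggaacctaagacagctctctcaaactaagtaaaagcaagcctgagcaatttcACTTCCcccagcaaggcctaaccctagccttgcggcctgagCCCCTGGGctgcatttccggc
Fcrl1: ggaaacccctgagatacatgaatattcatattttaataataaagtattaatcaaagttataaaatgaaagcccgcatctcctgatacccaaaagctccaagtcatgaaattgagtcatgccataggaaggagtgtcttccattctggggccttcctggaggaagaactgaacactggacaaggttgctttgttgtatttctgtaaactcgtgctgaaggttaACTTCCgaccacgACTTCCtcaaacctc
Cd79a held 1 E-box and 1 ETS match, Bank1 held 1 of each and 1 EBF match, and Fcrl1 held 2 ETS matches. Fcrla held 1 E-box, and Fcmr, Pou2af1 and Irf4 held no match. Of 32851 promoter windows of the same length, 19.7% held the ETS letters, 17.2% the E-box and 11.8% the EBF palindrome. The octamer ATGCAAAT, the site of the factors that POU2AF1 joins, was in 1.6% of all windows and in none of the 7. None of these motifs overlapped another in the 3 sequences, and a match here is a description of letters only.

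Signals are given as log2 of the processed signal minus the 75th percentile of the same array, so a step of 1 is a 2-fold difference and 0 is the 75th percentile. Differences were tested with limma in a model of day and genotype over all genes, with an adjusted p below 0.05 as the threshold. That model left 2 residual degrees of freedom, so its p-values measure what day and genotype did not explain across 6 arrays. The 75th percentile lay between 793 and 975 intensity units on Ccr2KO arrays and between 878 and 1179 on WT arrays, and 58.1 to 64.3% of probes were well above background. Ccr2, the targeted gene, read −5.07, −1.51 and −3.64 on the Ccr2KO arrays (untreated, day 28, day 40) and 0.09, 1.38 and −1.70 on the WT arrays, lower in Ccr2KO at each time. Its probe was above background on all 6 arrays, and whether it lies inside the deleted sequence is not known here. All 15 genes that define CD45-negative lung cells and all 12 pan-leukocyte genes were above background on every array, so leukocyte RNA was present in all 6 preparations.

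Ms4a1, which encodes the B cell surface protein CD20, read 0.98, 2.58 and −1.37 on the Ccr2KO arrays (untreated, day 28, day 40) and 1.48, 2.88 and 0.16 on the WT arrays. Cd79a, for 1 of the paired signalling chains of the receptor, read −2.88, −1.57 and −4.61 in Ccr2KO and −2.70, −1.55 and −3.36 in WT. Cd79b, for the other chain, read 2.10, 3.27 and 0.34 in Ccr2KO and 2.66, 3.53 and 1.04 in WT. In both genotypes these 3 receptor genes were highest at day 28 and lowest at day 40, and the lowest array of all was Ccr2KO day 40.

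Bank1, a scaffold protein of B cell receptor signalling, read −0.83, 0.54 and −3.24 in Ccr2KO and −0.35, 0.83 and −2.01 in WT. Its dimmer second probe read −1.67 and −0.40 on the first 2 Ccr2KO arrays and −1.36, −0.27 and −3.04 in WT; its Ccr2KO day 40 spot was an outlier and was not used. Both Bank1 probes had the same order of days within WT. Fcmr, the receptor for the constant part of IgM, read 1.80, 3.16 and −0.73 in Ccr2KO and 2.15, 3.55 and 0.91 in WT. Fcrl1, a surface Fc receptor-like protein of B cells, read −3.26, −2.15 and −6.26 in Ccr2KO and −3.33, −1.65 and −4.70 in WT. It was not well above background on the Ccr2KO day 40 array, which puts it at least 6.88-fold lower there than in untreated Ccr2KO cells and at least 14.9-fold lower than at day 28. Fcrla, an Fc receptor-like protein kept inside B cells, read −0.26, 0.80 and −2.14 in Ccr2KO and 0.16, 1.38 and −1.15 in WT. For these 4 genes the day 28 arrays were again the highest of each genotype and the day 40 arrays the lowest.

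Pou2af1, the coactivator of octamer factors in B cells, read 0.54, 1.73 and −0.82 in Ccr2KO and 0.25, 2.22 and −0.02 in WT. Irf4, a transcription factor needed to form plasma cells and also made by T cells and dendritic cells, read −1.25, 0.36 and −2.79 in Ccr2KO and −1.15, 0.61 and −1.47 in WT. These 2 regulators followed the same order of days, but in WT their day 40 values differed from untreated by −0.27 for Pou2af1 and −0.32 for Irf4. All 9 members read above untreated at day 28 and below untreated at day 40 in both genotypes, a pattern that 3.19% of all tested genes had.

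**Figure D1:**
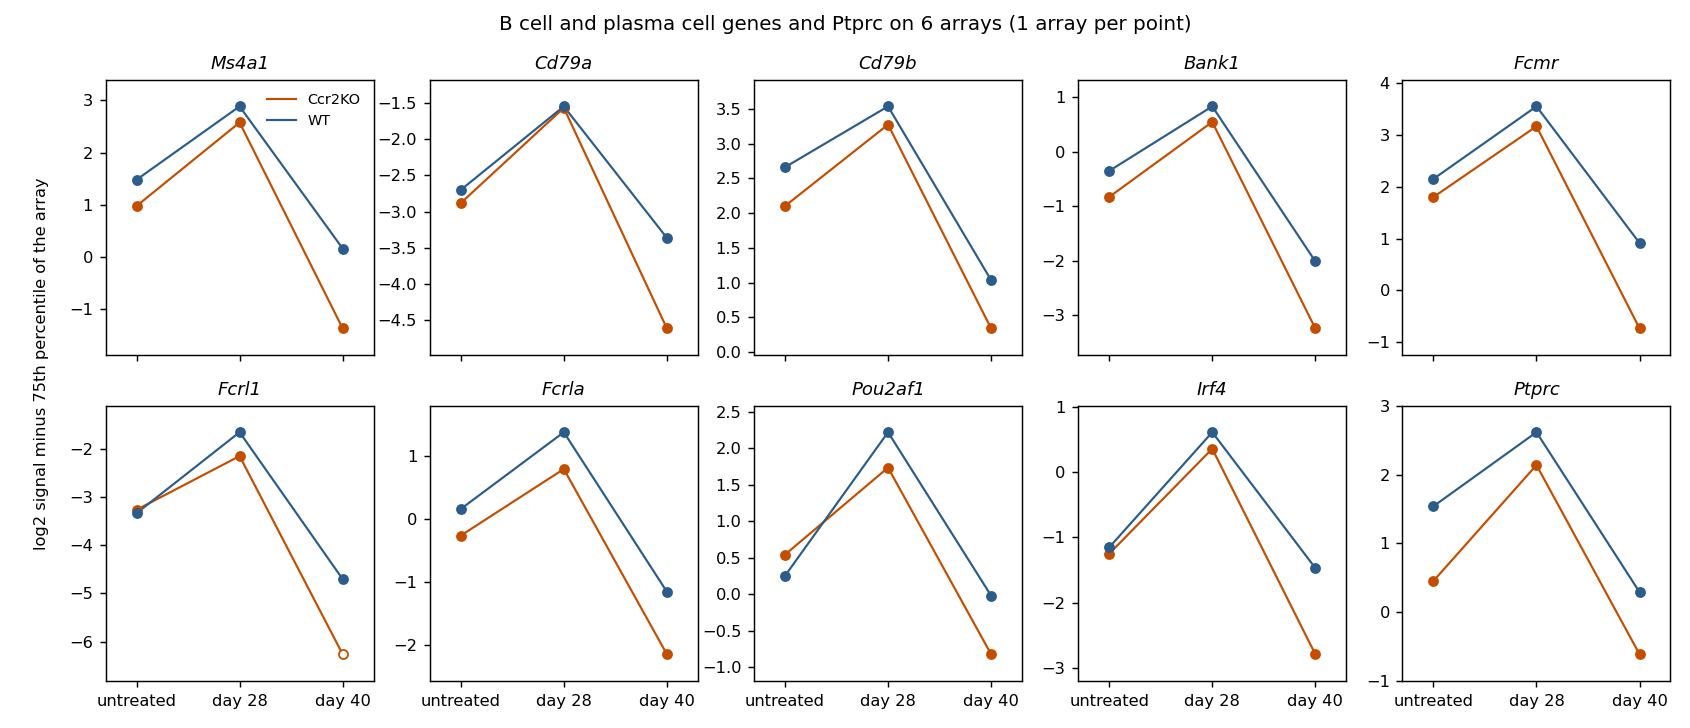
Log2 signal minus the 75th percentile of the array for the 9 members and Ptprc (y axes, 1 panel a gene) at 3 times (x axes), Ccr2KO in orange and WT in blue, 1 array a point, an open point where the probe was not well above background. Every panel peaks at day 28 and is lowest at day 40 in both genotypes.

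Between day 28 and untreated, 5 of 9 members rose: Irf4, Pou2af1, Bank1, Fcrla and Cd79b. Irf4 was 3.22-fold higher (log2 difference 1.69 ± 0.34 SE, limma adjusted p = 0.0434, n = 2 arrays a time). Pou2af1 was 2.99-fold higher (1.58 ± 0.29, adjusted p = 0.0371), Bank1 2.43-fold (1.28 ± 0.26, adjusted p = 0.0456), Fcrla 2.20-fold (1.14 ± 0.18, adjusted p = 0.0270) and Cd79b 2.03-fold (1.02 ± 0.15, adjusted p = 0.0242). Over all genes 9.2% passed upward in this comparison. The members that did not pass read 2.83-fold higher for Ms4a1, 2.64-fold for Fcrl1, 2.60-fold for Fcmr and 2.35-fold for Cd79a, with limma adjusted p-values of 0.0538, 0.0953, 0.0790 and 0.0827. The median over the 9 members was 1.38, against −0.05 over all genes. In a mixed preparation such as this, more cells of a type and more RNA per cell cannot be told apart. Ptprc was higher as well (1.38 ± 0.18, limma adjusted p = 0.0207), and 11 of 12 pan-leukocyte genes, 12 of 13 T cell genes and 7 of 8 neutrophil genes rose; their part in the change of the members was not tested. With 1 array left out, the members' median stayed between 1.06 and 1.71, but how many passed depended on which array was left out. Leaving out a day 28 or untreated array leaves 1 array at that time, too few for a count to describe the members. With slide row as a block, which left 1 residual degree of freedom, no gene passed and the members' median was 1.56, while the pair within row 1 (Ccr2KO day 28 and untreated) gave a median of 1.31.

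Between day 40 and untreated, 6 of 9 members fell, against 6.72% of all genes that passed downward. Fcrl1 was 4.55-fold lower (log2 difference −2.18 ± 0.42 SE, limma adjusted p = 0.0419), with the Ccr2KO day 40 array not above background. Bank1 was 4.09-fold lower (−2.03 ± 0.26, limma adjusted p = 0.0209), Fcmr 3.68-fold (−1.88 ± 0.37, adjusted p = 0.0453) and Ms4a1 3.56-fold (−1.83 ± 0.34, adjusted p = 0.0395). Cd79b was 3.23-fold lower (−1.69 ± 0.15, limma adjusted p = 0.0135) and Fcrla 3.03-fold (−1.60 ± 0.18, adjusted p = 0.0171). The signalling chain gene Cd79a (−1.19, limma adjusted p = 0.0926) and the regulators Irf4 (−0.93, adjusted p = 0.146) and Pou2af1 (−0.82, adjusted p = 0.140) did not pass. Ptprc itself was lower at day 40 (−1.16 ± 0.18, limma adjusted p = 0.0303), and 2 of 12 pan-leukocyte genes, 0 of 13 T cell genes and 0 of 8 neutrophil genes fell; their part in the change of the members was not tested. The 15 genes of CD45-negative cells had a median of 0.26 with 4 up and none down. The members' median was −1.69, against 0.02 over all genes. Both untreated arrays lay in row 1 of the slide and both day 40 arrays in row 2, so no pair of arrays in this comparison shares a row. With slide row as a block no gene passed, and the members' median was −1.27. With 1 array left out the median stayed between −1.84 and −1.27, but how many passed depended on which array was left out.

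**Figure D2:**
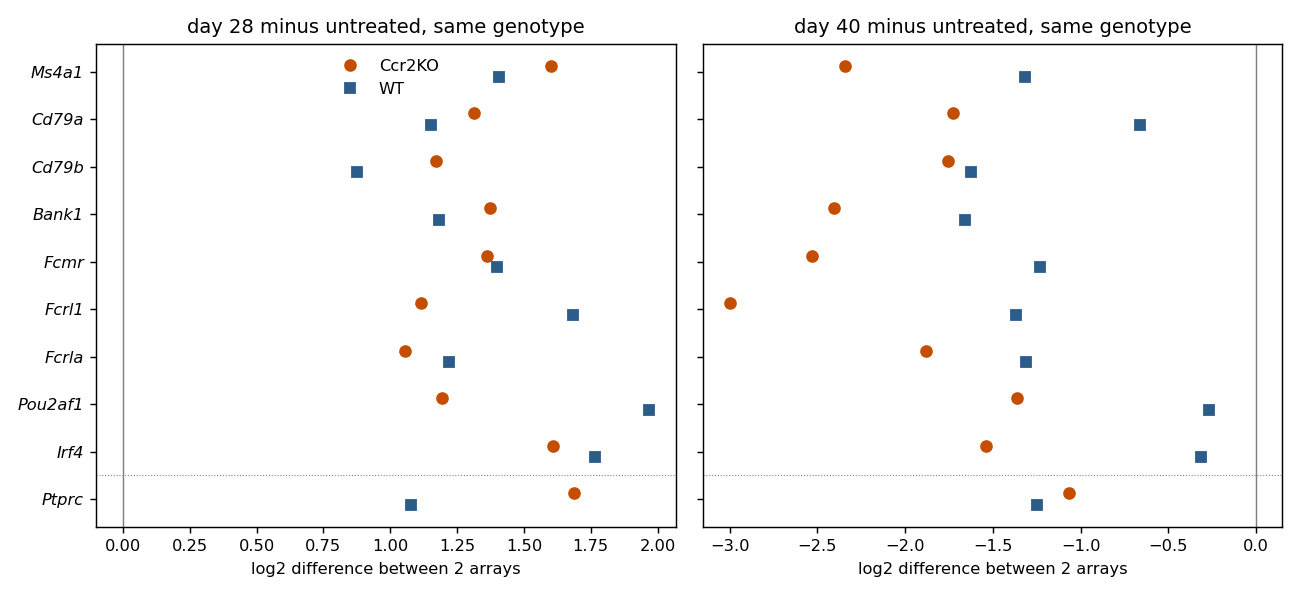
Log2 difference between the silica array and the untreated array of the same genotype (x axes, left day 28, right day 40) for the 9 members and Ptprc (rows), Ccr2KO as orange circles and WT as blue squares. All differences are above 0 at day 28 and below 0 at day 40, and at day 40 the Ccr2KO point lies left of the WT point for each of the 9 members but not for Ptprc.

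Between the times after silica, 8 of 9 members were lower at day 40 than at day 28, against 2.53% of all genes that passed downward. Ms4a1 was 10.1-fold lower (−3.33 ± 0.34 SE, limma adjusted p = 0.0262), Bank1 9.92-fold (−3.31 ± 0.26, adjusted p = 0.0165) and Fcmr 9.59-fold (−3.26 ± 0.37, adjusted p = 0.0359). The fitted difference of Fcrl1 (−3.58 ± 0.42, limma adjusted p = 0.0367) includes a Ccr2KO day 40 signal not well above background, so within Ccr2KO the probe gives only a bound, at least 14.9-fold lower. Fcrla and Cd79b were 6.66-fold and 6.56-fold lower, Irf4 6.12-fold and Pou2af1 5.27-fold, with limma adjusted p-values between 0.0147 and 0.0469. Cd79a was 5.38-fold lower with an adjusted p of 0.0569 and did not pass. The members' median was −2.74, against 0.10 over all genes. Ptprc differed by −2.54 ± 0.18 (limma adjusted p = 0.0157), and 11 of 12 pan-leukocyte genes, 12 of 13 T cell genes and 6 of 8 neutrophil genes fell with them; their part in the change was not tested. With slide row as a block no gene passed, and the members' median was −2.68. With 1 array left out the median stayed between −3.19 and −2.57, but how many passed depended on which array was left out. Leaving out a silica array leaves 1 array at that time, too few for a count to describe the members. Within row 2 of the slide, which held both WT arrays, the median was −2.53.

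Averaged over both silica times, none of the 9 members passed against untreated in limma, and none had an unadjusted p below 0.05, where 10.5% of all genes passed upward and 9.32% downward. The 9 differences ran from −0.39 to 0.38 with a median of −0.23, since the day 28 and day 40 differences of each member had opposite signs.

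In Ccr2KO against WT cells, all 9 members read lower on average and none passed. The differences ran from −0.79 for Fcmr to −0.33 for Pou2af1, with a median of −0.66 (SE 0.12 to 0.34, n = 3 arrays a genotype, lowest limma adjusted p = 0.437). At an unadjusted p below 0.05 there were 4 members and 1525 of all 16424 genes, and 0% of all genes passed after adjustment. Ms4a1, Cd79a, Cd79b, Bank1, Fcmr, Fcrla and Irf4 read lower in Ccr2KO on each of the 3 days, which 13.3% of all genes did. Fcrl1 and Pou2af1 read 0.07 and 0.29 higher in untreated Ccr2KO than in untreated WT cells and lower at both later times. By day, the median Ccr2KO minus WT difference was −0.35 untreated, −0.31 at day 28 and −1.25 at day 40. At day 40, 6 of 9 members were at least 2-fold lower in Ccr2KO, as were 1.6% of all genes. No member was that much lower in untreated cells or at day 28, where 2.81% and 1.19% of all genes were. Fcmr differed most at day 40, by 3.13-fold, while Cd79b differed least, by 1.62-fold. These pairs are single arrays with no test; the untreated pair lay in row 1 of the slide and the day 40 pair in row 2. No member's silica response passed as different between genotypes in limma (9 differences from −1.10 to 0.08, SE 2.13 to 3.20, adjusted p = 0.99982, 0% of all genes passed). That model has no term for day 28 against day 40, so the members' change between these days enters its standard errors. With standard errors of that size a 2-fold difference was not detectable. Their median of −0.45 turned to 0.65 without the WT day 28 array and to 1.1 without the Ccr2KO day 40 array. At an unadjusted p below 0.05 there were 0 members and 618 of all genes.

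Set against Ptprc, the members varied much less. Each member's values spanned 3.04 to 4.61 log2 over the 6 arrays, and 0.82 to 1.93 once the Ptprc value of the array was subtracted. Ptprc is 1 probe, and at day 40 against untreated it fell the most of the 12 pan-leukocyte genes (−1.16, list median −0.65). Between day 28 and day 40 the members' median was −0.20 relative to Ptprc and −0.49 relative to the mean of the pan-leukocyte genes. Across the 6 arrays, which share slide and scaling, Pearson's r between members was 0.924 to 0.999 over 36 pairs (median 0.985) and r of each member with Ptprc 0.927 to 0.974. Irf4 and Pou2af1 stayed closer to Ptprc at day 40 in Ccr2KO than Fcrl1, Fcmr, Bank1 and Ms4a1 did: relative to untreated Ccr2KO cells, the change of Pou2af1 minus that of Ptprc was −0.30 and that of Irf4 −0.47, and the other 4 ran from −1.93 to −1.28, with Fcrl1 not well above background there. In WT at day 40 the same difference was 0.98 for Pou2af1, 0.93 for Irf4 and 0.59 for Cd79a, and between −0.41 and 0.02 for the other 6.

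Between genotypes, the side on which the members lay relative to Ptprc depended on the day. Relative to Ptprc, all 9 members were higher in untreated Ccr2KO than in untreated WT cells (median 0.74), 6 of 9 were higher at day 28 (median 0.17), and 7 of 9 were lower at day 40 (median −0.34). Ptprc itself differed between Ccr2KO and WT by −1.09, −0.48 and −0.90 at the 3 times, so part of each value comes from that 1 probe. Fitted over the 3 days, the median of the members was 0.16 in Ccr2KO minus WT relative to Ptprc, −0.11 relative to the mean of the pan-leukocyte genes, and −0.10 relative to Ptprc without either the Ccr2KO or the WT untreated array. At day 28, the difference from untreated was smaller than that of Ptprc for all 9 members in Ccr2KO cells (median −0.37 from Ptprc) and larger for 8 of 9 in WT cells (median 0.32). These are differences between single arrays, and whether they differ by genotype was not tested apart from the fit above.

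**Figure D3:**
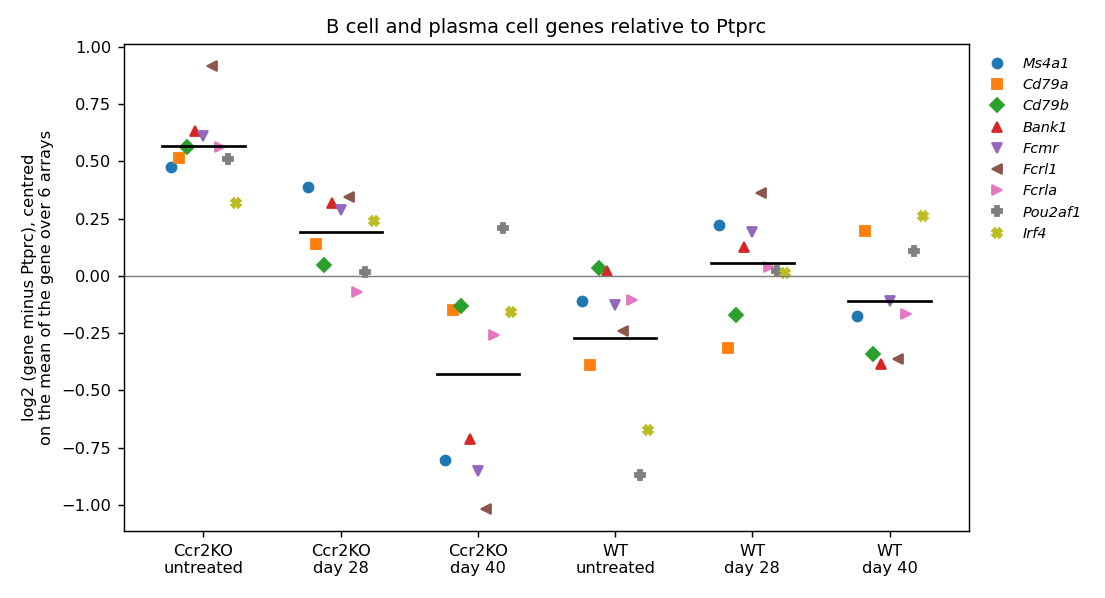
Log2 member minus Ptprc on the same array, centred on the mean of each member over 6 arrays (y axis), for the 6 arrays (x axis); each symbol is 1 member and the bar is the mean of the 9. The mean is highest on the Ccr2KO untreated array (0.57) and lowest on the Ccr2KO day 40 array (−0.43).

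In limma after subtraction of Ptprc, 3 members were lower at day 40 than at day 28: Ms4a1 (−0.79 ± 0.39, adjusted p = 0.0409), Bank1 (−0.77 ± 0.39, adjusted p = 0.0472) and Fcrl1 (−1.04 ± 0.39, adjusted p = 0.00706). The Fcrl1 value includes its Ccr2KO day 40 signal, which was not well above background, and with normexp background correction it turned to 0.89 (limma adjusted p = 0.00505), where 2 members passed upward and 2 downward. Of all genes 0.0974% passed downward there and 97.4% passed upward, with Ptprc itself at a difference of −2.54. Subtracting 1 gene adds a shared part to the residual of every gene. The prior degrees of freedom that limma estimated were infinite, so these p-values rest on a variance shared by all genes. With a variance for each gene, an alternative chosen after seeing the data, none of the 3 passed. No member passed either without the Ccr2KO day 28, Ccr2KO day 40 or WT day 28 array. None of the 9 passed in limma for silica against untreated relative to Ptprc (7.11% of all genes upward, 6.67% downward) or for Ccr2KO against WT relative to Ptprc (85.9% upward, 0.213% downward), and 0 had an unadjusted p below 0.05 in either.

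Of 24 listed B cell genes beyond the members, 10 rose at day 28 (median over the list 1.25), 5 fell and 1 rose at day 40, and 11 were lower at day 40 than at day 28. Over all genes 8.45% passed upward at day 40, so 1 of 24 is below that share. Blk, a Src-family kinase of the receptor, and Cd72, a B cell co-receptor, rose at day 28 by 2.06 ± 0.21 and 2.01 ± 0.21 (limma adjusted p = 0.0142 and 0.0145). Pax5, the factor that sets B cell identity, was above background in untreated and day 28 cells of both genotypes and on neither day 40 array, at least 3.63-fold lower at day 40 than at day 28 (limma adjusted p = 0.0157). Blk was likewise at least 7.13-fold lower (limma adjusted p = 0.0161). Such bounds set a dim array at the probe's own signal or, where higher, at the dimmest signal that counted as well above background. The limma p-values given beside bounds, here and for Tnfrsf17 and Glycam1 below, come from the signals as read. They include the arrays not above background and do not test the bound. Spib, an ETS factor of B cells and plasmacytoid dendritic cells, was the gene that rose at day 40. It read 0.35, 2.34 and 1.23 in Ccr2KO and 0.42, 2.51 and 1.22 in WT, with both day 40 arrays above both untreated arrays (0.84 ± 0.11, limma adjusted p = 0.0231). Fcer2a, the low-affinity IgE receptor CD23, was higher over both silica times (1.16 ± 0.20, limma adjusted p = 0.0285).

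Of 17 genes of B cell receptor signalling, 10 rose at day 28, and 4 fell and 1 rose at day 40. Over all genes 9.2% passed upward at day 28 and 6.72% downward at day 40. The 1 of 17 that rose at day 40 is below the 8.45% of all genes. The kinases Btk and Syk, which myeloid cells also make, rose at day 28 by 1.49 ± 0.15 and 1.32 ± 0.14 and were lower at day 40 than at day 28 (log2 differences −2.46 ± 0.15 and −2.19 ± 0.14, limma adjusted p = 0.0141, 0.0141, 0.0147 and 0.0147). Malt1, a protease that links antigen receptors to NF-kappa B in B and T cells, was the gene that rose at day 40 (0.88 ± 0.11, limma adjusted p = 0.0208).

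Of 18 listed plasma cell and secretion genes, 4 rose at day 28 (median 0.55), 1 rose and none fell at day 40 (median 0.15), and 2 were lower at day 40 than at day 28. The 1 of 18 that rose at day 40 is below the 8.45% of all genes, and the 4 of 18 at day 28 stand beside 9.2% of all genes. Mzb1, a chaperone of antibody-secreting cells, rose at day 28 (1.89 ± 0.32, limma adjusted p = 0.0317), as did Derl3 of the protein degradation pathway of the endoplasmic reticulum (1.33 ± 0.27, adjusted p = 0.0450). Mzb1 read −0.44, 0.87 and −1.29 in Ccr2KO and −0.70, 1.76 and −0.54 in WT. Jchain, the chain that joins IgA and IgM into polymers, read 3.43, 4.32 and 3.15 in Ccr2KO and 1.99, 5.41 and 3.87 in WT. Jchain was highest at day 28 in both genotypes, its untreated level was higher in Ccr2KO than in WT, and its change at day 28 did not pass (2.15 ± 0.67, limma adjusted p = 0.105). Tnfrsf17, the survival receptor BCMA, was above background on the 4 untreated and day 28 arrays and on neither day 40 array, at least 4.55-fold lower at day 40 than at day 28 (limma adjusted p = 0.0431). Fkbp11, of the secretory pathway, and Sdc1, the plasma cell antigen CD138 that epithelium also carries, were higher over both silica times (0.90 ± 0.14 and 0.50 ± 0.11, limma adjusted p = 0.0236 and 0.0497).

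Of 12 measured genes whose products attract or sustain B cells, 7 were higher over both silica times and none lower, with a median of 1.12. Cxcl13, the chemokine that draws B cells into follicles, read −1.07, 2.41 and 2.15 in Ccr2KO and −2.08, 2.37 and 1.94 in WT, and rose by 3.79 ± 0.24 (limma adjusted p = 0.00765). Both silica times lay above untreated in both genotypes, with no overlap. Lta, the lymphotoxin chain made by lymphocytes, read −4.61, −1.80 and −3.35 in Ccr2KO and −4.73, −2.07 and −3.78 in WT (1.92 ± 0.11, limma adjusted p = 0.00765). Madcam1, the adhesion molecule of lymphoid venules, and Ccl19, a ligand of CCR7, rose by 1.54 ± 0.10 and 1.37 ± 0.22 (limma adjusted p = 0.00765 and 0.0262). Glycam1, an L-selectin ligand of high endothelial venules, was above background on all 4 silica arrays and on neither untreated array, at least 40.6-fold higher after silica (limma adjusted p = 0.00976). Ltb, the other lymphotoxin chain, was lower at day 40 than at day 28 (−2.52 ± 0.18, limma adjusted p = 0.0157). Among the listed germinal centre genes, Il21r, the receptor for a helper cytokine, rose at day 28 (1.48 ± 0.25, limma adjusted p = 0.0303).

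**Figure D4:**
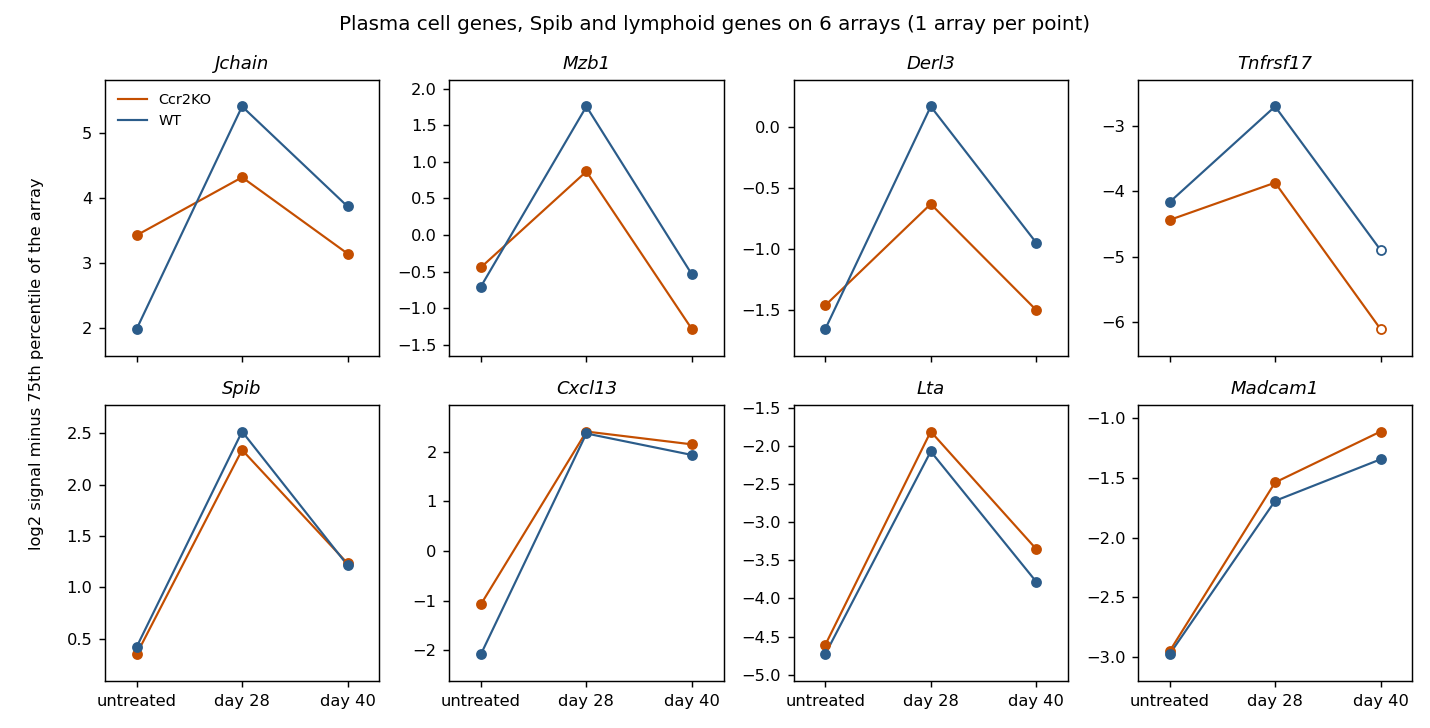
Log2 signal minus the 75th percentile of the array (y axes) at 3 times (x axes) for plasma cell genes, Spib, Cxcl13, Lta and Madcam1, Ccr2KO in orange and WT in blue, 1 array a point, open where not well above background. Spib, Cxcl13, Lta and Madcam1 stay above untreated at day 40, and Tnfrsf17 does not.

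The members were set beside lists of other cells that the preparation could hold. Pan-leukocyte genes averaged 1.48, 3.34 and 1.06 in Ccr2KO and 2.38, 3.68 and 1.47 in WT, and the 9 members −0.34, 0.97 and −2.40 in Ccr2KO and −0.09, 1.31 and −1.18 in WT. T cell genes averaged −0.48, 1.13 and −0.79 in Ccr2KO and −0.54, 1.01 and −0.62 in WT. Against untreated cells of the same genotype, the day 40 median was −1.88 in Ccr2KO and −1.31 in WT over the members, −0.50 and −0.79 over pan-leukocyte genes, and −0.27 and −0.0042 over T cell genes. All 9 members lay below 0 at day 40 in both genotypes, with Pou2af1 in WT nearest to it at −0.27. The fitted median of 9 NK cell genes was 0.61 at day 28 and −0.65 at day 40. Of 13 macrophage and dendritic genes 7 rose at day 28, and 1 rose and 3 fell at day 40. That 1 of 13 is not above the 8.45% of all genes that passed upward at day 40.

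**Figure D5:**
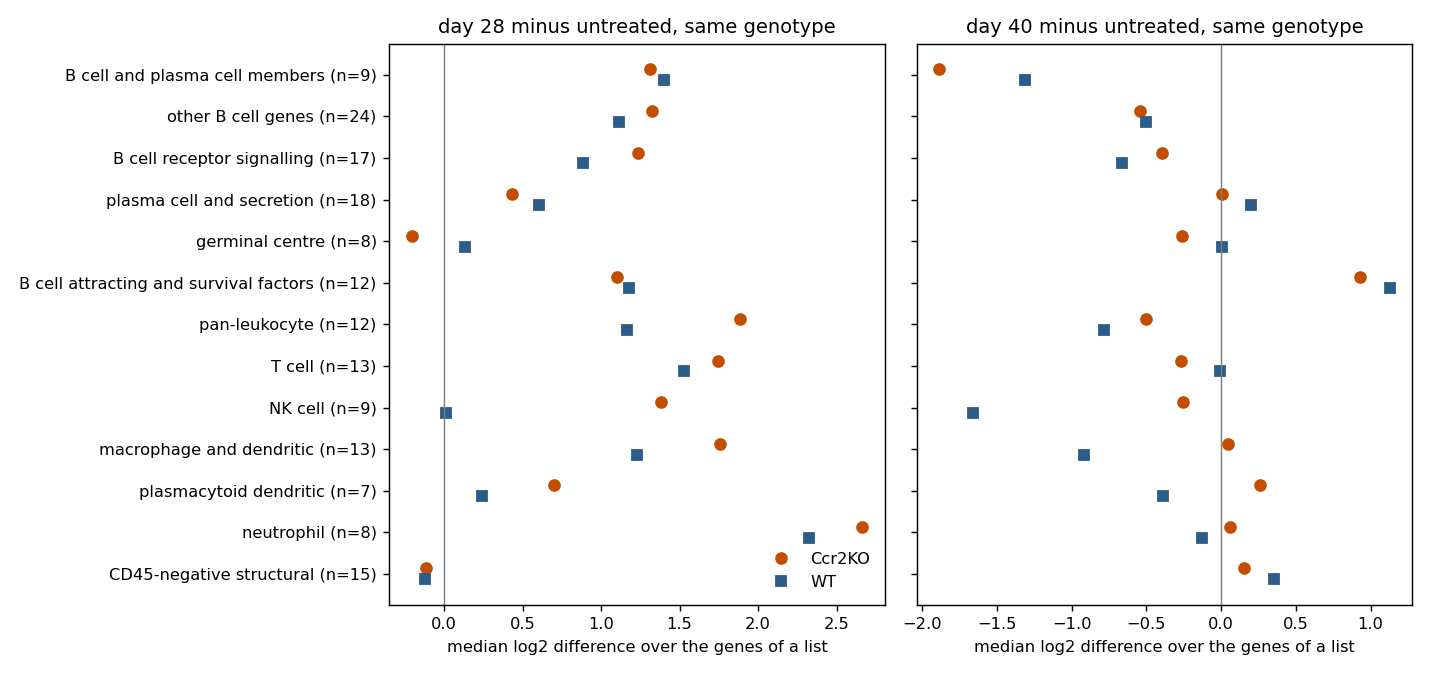
Median log2 difference between the silica and the untreated array of the same genotype (x axes, left day 28, right day 40) over the members and 12 gene lists (rows, n genes measured), Ccr2KO as orange circles and WT as blue squares. At day 40 the members have the lowest median of the 13 rows in Ccr2KO, and the NK cell list has the lowest in WT.

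The genes whose 6 values were most like the mean of the members were ranked by Pearson's r among 5022 genes that varied by at least 2-fold and were above background on at least 2 arrays. The first 10 included H2-Ob (r = 0.996), Fam169b, Gpr174, Tspan32, Gimap3, Siglecg, Ccr7, Rbm38 and Tnfrsf13c (r = 0.989), of which H2-Ob, Siglecg and Tnfrsf13c were on the list of other B cell genes. H2-Ob, a chain of the MHC class II modulator H2-O, read 0.16, 1.42 and −1.48 in Ccr2KO and 0.72, 1.81 and −0.47 in WT. Ptprc ranked at position 51 (r = 0.969), Ccr2 at 802, Spib at 899 (r = 0.529) and Jchain at 894 (r = 0.531). With 6 arrays these values describe the arrays and carry no test.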

How the data were processed

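The authors scanned one-colour Agilent arrays (design 028005), per the file headers, and extracted background-subtracted processed signals, an intensity on a linear scale, with Feature Extraction 11.0.1.1. The deposited scanner intensity of 59305 spots that were not controls was used. After removal of 109 to 195 outlier spots an array, repeats of a probe were averaged and the 75th percentile of the array was subtracted from the log2 signal. Saturation was not found in any spot. The authors' deposited table of log2 values for 30574 probes, for which the submitters' processing notes name R 2.15.1, equals log2 of the averaged scanner signal to within 5e-09 and served as an alternative.

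Probes were named through their RefSeq transcripts (27509 of 55681 matched 1 symbol), kept if 2 or more of 6 arrays had them well above background, and the brightest probe of a gene was used. The files used hold no gene-name column, so immunoglobulin probes without a RefSeq name are not reported here. Tests were run in R 4.3.3 with limma 3.58.1 (lmFit, eBayes) and data.table (1.17.8), with Benjamini-Hochberg adjustment over 16424 genes: an additive model of genotype and day (prior degrees of freedom 2.22 beside 2 residual), a model of genotype by silica (prior 1.87), and the additive model after subtraction of Ptprc from every gene. Of these, only the additive model without subtraction of Ptprc was tried on simulated data, with errors drawn as limma assumes. The model of genotype by silica and the fits relative to Ptprc were not simulated. The number of arrays limits the precision. With 1 pool a group, p-values measure what the model left unexplained across the 6 arrays. In the additive model that is any difference between the genotypes in their change by day. They measure no spread between pools of the same group or between animals.

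The members and lists were chosen with earlier results of these data known. Named were the members, Ptprc, Ccr2, up to 4 genes of each list with the largest silica change, the B cell and plasma cell genes that passed, and the 10 genes most like the members; of the genes that passed, examples are given. Btk, Syk, Ccl19 and Ltb were named after their values were seen, and some genes that this rule names are not reported here. Alternatives were the authors' table, normexp background correction (offset 50), quantile normalization, a filter requiring all 6 arrays or none, a mean over the probes of each gene, eBayes with trend and robust options, slide row as a block, pan-leukocyte genes in place of Ptprc, each array left out, and, chosen after seeing the data, a variance for each gene in the fits relative to Ptprc.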

Additional observations from a re-analysis of the deposited data

Results flagged for a closer look

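Of 88 genes checked (the members and the listed genes of B cells, receptor signalling, germinal centres, plasma cells and B cell factors), 5 had both silica times on one side of untreated in Ccr2KO and on the other in WT, and none of these was a member. The value given is the silica response in Ccr2KO minus that in WT, from the limma model of genotype by silica, with an adjusted p of 0.99982 for each, so the difference is not shown. Il6, a cytokine that sustains plasma cells, differed by −2.43 (day 28 and day 40 minus untreated −2.30 and −0.48 in Ccr2KO, 0.76 and 1.32 in WT). Tnfsf13b, which encodes the B cell survival factor BAFF, differed by −1.17 (−0.31 and −0.17 in Ccr2KO, 1.07 and 0.79 in WT). Ell2, an elongation factor of antibody-secreting cells, differed by −0.88 (−0.49 and −0.76 in Ccr2KO, 0.35 and 0.16 in WT). Bcl6, the repressor that sets the germinal centre state, differed by −0.56 (−0.38 and −0.20 in Ccr2KO, 0.31 and 0.22 in WT). Xbp1, the secretory pathway factor of plasma cells, differed by −0.16 (−0.04 and −0.0051 in Ccr2KO, 0.15 and 0.13 in WT). Each direction rests on 1 array a group.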

How the results depend on the processing

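At day 28, at day 40, between these days and between genotypes, none of the 124 member values computed in each comparison under the alternatives, including each array left out, reversed; Fcrl1 was not tested with the authors' table or with probes above background on all 6 arrays, which leave 8 members. Signs were less stable where no member or few passed: 15 of 124 member values reversed for silica averaged over both times, 20 of 106 for the difference of silica responses (medians −2.21 to 1.1 with 1 array left out), and, relative to Ptprc, 13 of 142 for silica, 11 of 142 between day 28 and day 40 and 24 of 142 for Ccr2KO against WT. Counts of members that passed did not hold as well. Against the 5 that passed at day 28, 9 passed with normexp correction, 8 of 8 with probes above background on all 6 arrays, 3 with quantile normalization, 0 with no filter and 0 with slide row as a block, and 0 to 9 with 1 array left out. Against the 6 that passed at day 40, 3 passed with no filter, 0 with slide row as a block and 0 to 7 with 1 array left out. Between day 28 and day 40, against 8, 3 passed with no filter, 0 with slide row as a block and 0 to 8 with 1 array left out. Fits without an array or with slide row have 1 residual degree of freedom, and without a filter more genes are tested. With slide row as a block no gene passed in any of these comparisons, so those counts of 0 are not particular to the members. Where 1 array is left at a time, a count of 0 is likewise no result about the members. Relative to Ptprc, the 3 members that passed between these days became 1 with no filter, 0 with slide row, 0 with a variance for each gene and 0 to 4 with 1 array left out. For silica relative to pan-leukocyte genes in place of Ptprc 2 passed, both downward, against 0, and for Ccr2KO against WT relative to Ptprc 2 passed upward with normexp, against 0. Fcrl1 relative to Ptprc between day 28 and day 40 reversed to 0.89 with normexp (limma adjusted p = 0.00505); the cause was not tested. Of 646 values of other named genes under the alternatives, 437 kept direction and side of the threshold, 200 no longer passed, 9 newly passed and 0 reversed. Ptprc has 1 probe, so the mean of its probes was not run, and the difference of responses could not be fitted without an untreated array. No paired analysis was possible because the labels give no replicate numbers and each group has 1 array. Signal over background limits Fcrl1 at Ccr2KO day 40 to a bound.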
